A study of Mus musculus with 2 samples.

Results

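GATA4 peaks in mouse liver were read at 10 genes of the Notch pathway. They were the ligand genes Dll1, Dll4 and Jag1, the receptor genes Notch1 and Notch4, the DNA-binding effector gene Rbpj, and the target genes Hes1, Hey1, Hey2 and Heyl, of 21755 protein-coding genes examined. They were chosen by name, with earlier results of these data known. Every peak whose summit lay in a gene or within 10 kb of it was counted, which gave 24 of the 24050 peaks used. The chromatin came from whole liver of healthy adult mice and was precipitated with an antibody against GATA4. There was 1 group with 2 samples, labelled biological replicates 1 and 2. Both carry the same tissue and donor identifiers, and any spread between the replicates may therefore be technical. Age is labelled unknown, sex was not collected, and a strain is not given in the sources used here.

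Notch signalling passes between touching cells: a Delta-like or Jagged ligand on a cell binds a Notch receptor on its neighbour, and proteases then free the receptor's intracellular part. This fragment enters the nucleus and joins RBPJ on DNA, where it turns on genes of the HES and HEY repressors. In the liver the pathway is known for bile duct formation, and in endothelium for the choice between arterial and venous fate and for the restraint of sprouting. GATA4 is a zinc-finger transcription factor known in the liver from sinusoidal endothelium and stellate cells. Whole liver holds hepatocytes, endothelium and other cells, so a peak cannot be assigned to a cell type from these lists, and the files hold no RNA.

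Peaks were taken from the authors' optimal list, which combines both replicates under a threshold on the irreproducible discovery rate (IDR). Its 24083 lines were ranked by the peak caller's signal score, a number deposited without a unit, so that rank 1 is the strongest peak. Replicate 1's own thresholded list held 4287 peaks and replicate 2's 26314. The authors' conservative list held 9251. No file gives a read count, so depth is unknown. With 1 group there was no contrast to test, so shares over all genes or all peaks stand beside the counts, and no p-value is given.

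Notch1 had more summits than any other member, and its strongest peak was also the strongest of the set. Summits were found at 8 of the 10 genes, where 47.6% of all protein-coding genes had a summit. A pooled list from a later run of the authors' processing gave 8 too, against 47.2% of all genes. Notch1 had 9 summits, Dll1, Dll4 and Hes1 had 3 each, Notch4 and Rbpj had 2 each, and Jag1 and Hey1 had 1 each. Hey2 and Heyl had 0. A gene's span bears on such counts. Dll1, Hes1 and Hey1, which each span less than 10 kb, all had a summit, as did 30.8% of genes of that span. Notch1 and Rbpj, of 58.8 kb and 191 kb, had them too, as did 65.2% of genes of at least 50 kb. Of the members between these spans, Dll4, Jag1 and Notch4 had a summit and Hey2 and Heyl had none, where 52.0% of genes did.

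The sequences at the summits differed among the members. A GATA site was the letters AGATAA, the form AGATAG, the form TGATAA or the form TGATAG, on either strand. ETS factors act in endothelium and blood, and an ETS site was AGGAAA, the form AGGAAG, the form CGGAAA or the form CGGAAG, on either strand. The 101 bases centred on a summit are printed 5′ to 3′ on the plus strand of GRCm38.p6 (mm10), with GATA and ETS sites in capitals and minus-strand sites shown as their reverse complement. Neighbouring capitals can be overlapping sites. The genome sequence is that of RefSeq. The 4 Notch1 windows are those with the highest rank that hold a GATA site. The Dll1 and Dll4 windows show ETS sites without a GATA site, the Hes1 downstream window a GATA site without an ETS site, and the Rbpj window neither.
Notch1 chr2:26475086-26475186, rank 429: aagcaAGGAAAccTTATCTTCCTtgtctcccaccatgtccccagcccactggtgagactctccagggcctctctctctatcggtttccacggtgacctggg
Notch1 chr2:26504675-26504775, rank 6052: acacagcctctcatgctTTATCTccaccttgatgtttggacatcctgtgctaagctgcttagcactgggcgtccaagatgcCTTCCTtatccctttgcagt
Notch1 chr2:26493089-26493189, rank 6189: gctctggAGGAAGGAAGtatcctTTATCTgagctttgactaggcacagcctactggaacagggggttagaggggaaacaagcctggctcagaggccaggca
Notch1 chr2:26496672-26496772, rank 6792: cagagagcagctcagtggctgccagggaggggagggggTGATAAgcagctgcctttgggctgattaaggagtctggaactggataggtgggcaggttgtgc
Dll1 chr17:15373092-15373192, rank 6163: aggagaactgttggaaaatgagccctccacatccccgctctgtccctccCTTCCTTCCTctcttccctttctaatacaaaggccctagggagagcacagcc
Dll4 chr2:119336605-119336705, rank 8976: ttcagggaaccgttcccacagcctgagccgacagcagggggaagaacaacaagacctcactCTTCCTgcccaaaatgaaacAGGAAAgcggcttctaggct
Hes1 chr16:30068873-30068973, rank 16675: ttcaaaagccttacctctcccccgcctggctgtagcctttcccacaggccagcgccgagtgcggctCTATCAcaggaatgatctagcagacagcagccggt
Rbpj chr5:53589375-53589475, rank 10900: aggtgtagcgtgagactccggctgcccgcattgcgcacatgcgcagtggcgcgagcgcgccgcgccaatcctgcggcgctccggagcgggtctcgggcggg

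**Figure D1:**
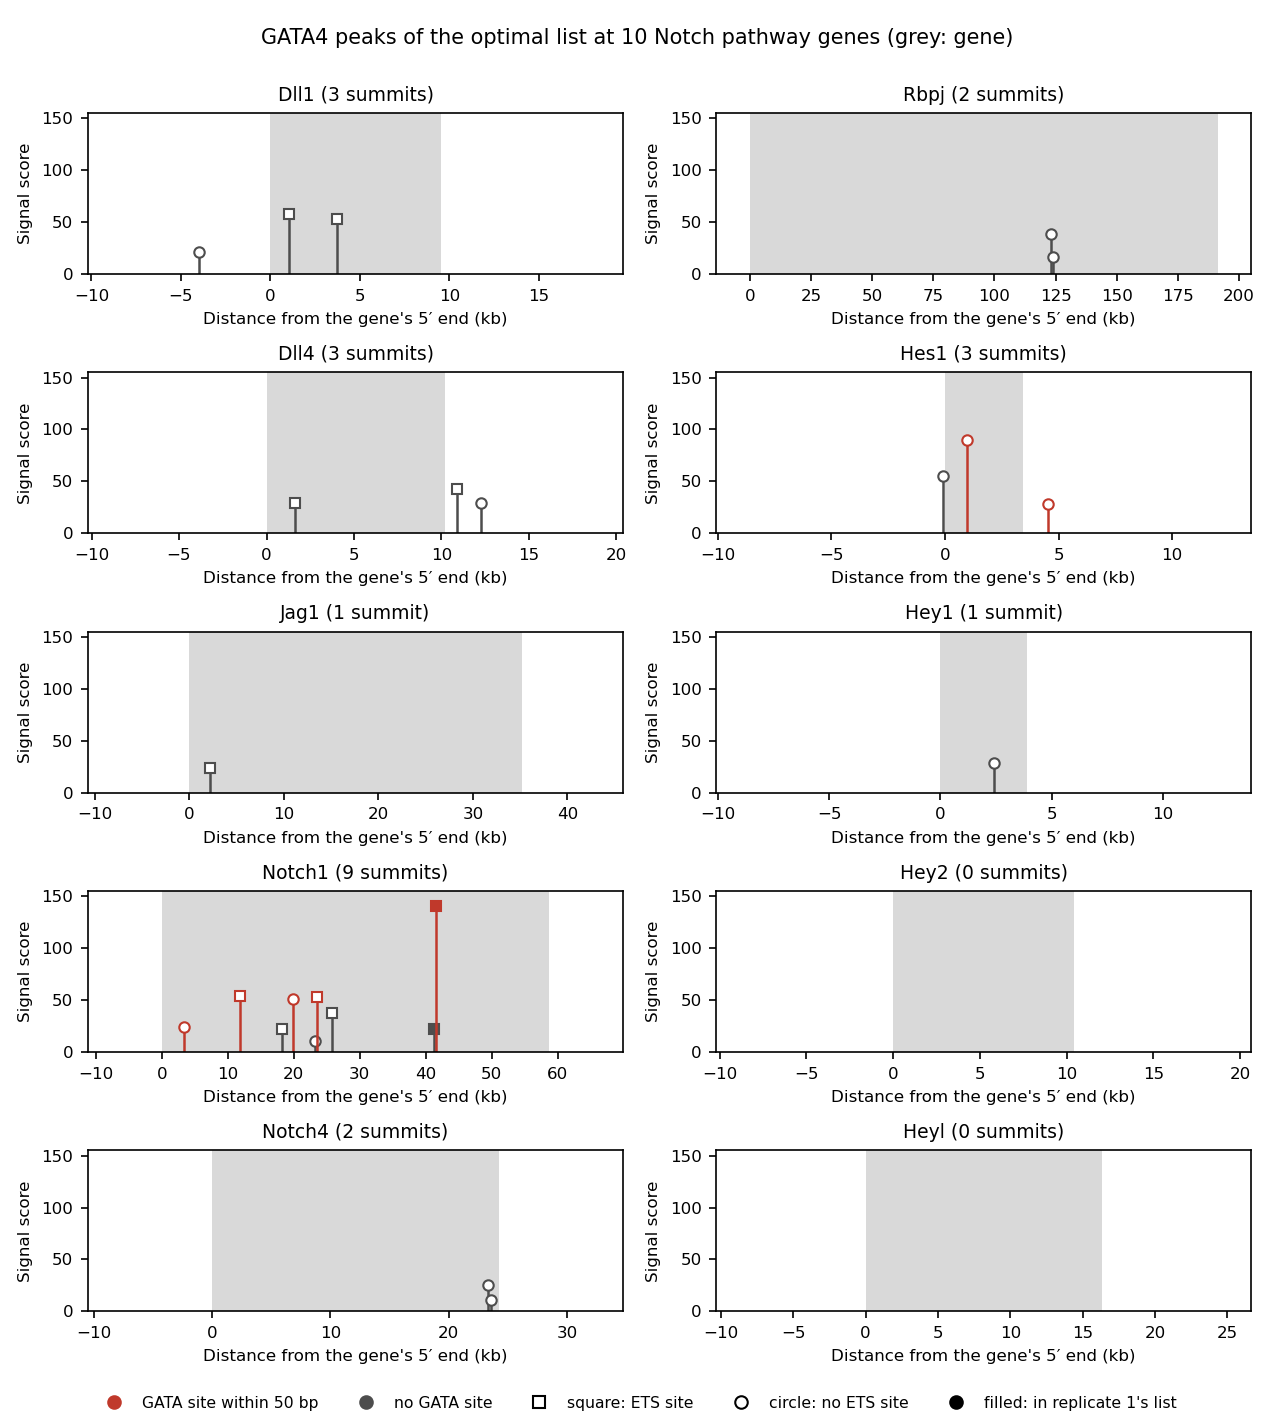
Each panel is a member, with the gene's span in grey, the distance of each summit from the gene's 5′ end in kb on the horizontal axis (which differs between panels) and the authors' signal score of the optimal list on the vertical axis. Red marks a GATA site within 50 bp of the summit, squares mark an ETS site, and filled symbols mark peaks in replicate 1's list. The 9 Notch1 summits reach a score of 140, and Hey2 and Heyl have none.

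Among the ligand genes, Dll1 had the strongest peak. Dll1 encodes a Delta-like ligand and lies on the minus strand of chromosome 17 at 15367354 to 15376872. Its peak of rank 5302 lay at 15375640 to 15375999, 156 bp downstream of a start site, with the summit in an untranslated exon. Replicate 2 had this peak at rank 4085 of its list before thresholding (300000 entries, called relaxed here), and replicate 1 had no overlapping entry. The peak of rank 6163, in an intron 2834 bp from the start site, is the Dll1 window printed above, where overlapping ETS sites lie 1.5 and 5.5 bp from the summit. It ranked 30339 in replicate 1's relaxed list and 5814 in replicate 2's, and the conservative list held no other Dll1 peak. The third Dll1 peak, of rank 21775, lay 4909 bp upstream, with no GATA or ETS site and 2 copies of GGGCGG, the letters bound by SP factors.

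Dll4, the Delta-like ligand gene of arterial and sprouting endothelium, lies on the plus strand of chromosome 2 at 119325784 to 119335962. Replicate 2's list held all 3 of its peaks, and replicate 1's list held none. The strongest, of rank 8976, lay at 119336475 to 119336834, downstream of the gene and 10871 bp from its start site. It had 2 ETS sites and 1 copy of GTGGGAA, the letters bound by RBPJ, which read TTCCCAC on the printed strand. Such a copy was found at 2.20% of all summits. A peak in an intron, 1604 bp from the start site, ranked 15892, and another downstream ranked 15822. In replicate 2's relaxed list the 3 peaks ranked 7337, 17834 and 17931, and replicate 1's relaxed list had no entry at Dll4. Replicate 2's thresholded list had 3 further Dll4 peaks that the optimal list lacked. They lay within 1 kb of the start site, at ranks 25312, 25634 and 25898 of 26314.

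Jag1, whose ligand is known from bile duct formation, had 1 peak. It lay at 137114282 to 137114641 on chromosome 2, in an intron 2182 bp from the start site, and ranked 20308. It was in neither replicate's thresholded list. Its relaxed ranks were 272226 in replicate 1 and 262662 in replicate 2, the lowest of the member peaks with an entry in each. They are those of the overlapping entries with the nearest summit, 38 and 82 bp away. The best relaxed entries in Jag1 or within 10 kb of it ranked 244418 in replicate 1 and 30979 in replicate 2. Its window had 2 ETS sites. The 7 ligand peaks had 0 GATA sites within 50 bp of their summits, where 52.8% of all peaks had one, and 5 of the 7 had an ETS site, where 46.0% of all peaks did.

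Among the receptor genes, Notch1 carried binding along its introns. It lies on the minus strand of chromosome 2 at 26457903 to 26516663. Its 9 summits spanned 38.1 kb and lay in peaks at 8 distinct positions. At least 9 summits were found at 1.07% of all protein-coding genes. That share is over genes of any span, and Notch1 spans 58.8 kb. The strongest peak lay at 26475021 to 26475350, in an intron 28686 bp downstream of the start site, with a signal score of 140 and rank 429. Among replicate 1's 4287 thresholded peaks it ranked 503, and among the 26314 of replicate 2 it ranked 473. Its conservative rank was 427. Its relaxed rank was 555 in replicate 1, with a signal score of 35.1, and 451 in replicate 2, with a score of 107. It was thus near the top in each replicate, which none of the other members' peaks was. Of the optimal list's peaks, replicate 1's list held 17.0% and that of replicate 2 held 82.5%. The optimal list gives this position in 2 lines with summits 204 bp apart, and the line with the other summit ranked 21252. So the 2 member peaks found in replicate 1's list are the same position.

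The summit of rank 429 had an AGATAA on the minus strand, centred 34.5 bp from the summit. This site shares 2 bases with an ETS site, AGGAAG on the same strand, and lies 2 bases from a further ETS site, AGGAAA on the plus strand. Replicate 1's own summit in this peak lay 45 bp away, at 26475181, and its window of 50 bp to each side held 1 ETS site and no GATA site. A GATA site lay elsewhere in the peak.

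The Notch1 peaks at other positions were of middle or low rank, and none was in replicate 1's list. The promoter peak at 26504545 to 26504904 lay 903 bp upstream of the start site, with rank 6052. Its summit was inside the annotated gene, 11938 bp from the gene's 5′ end. It had 1 AGATAA and 1 ETS site, 58 bases apart. It ranked 30155 in replicate 1's relaxed list and 5932 in replicate 2's. The intronic peak of rank 6189, at 26492959 to 26493318, had an AGATAA 6 bases from an ETS site. It ranked 4278 in replicate 2's relaxed list, and replicate 1's relaxed list had no overlapping entry. An overlapping line of the optimal list, with its summit 218 bp away, ranked 23661 and had neither site. The intronic peak of rank 6792 had a TGATAA 9.5 bp from the summit, next to a CAGCTG, the E-box bound by TAL1-type factors, centred 2.5 bp from the summit. Such an E-box lay at 7.68% of all summits. It ranked 253224 in replicate 1's relaxed list and 5593 in replicate 2's. The other 3 Notch1 peaks, all intronic, ranked 11058, 19885 and 21167. Of the 9 Notch1 summits, 5 had a GATA site and 6 an ETS site. At 3 summits both lay within 50 bp, where 23.2% of all summits had both. These 3 were the only such summits among the members.

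Notch4, a receptor gene known from endothelium, had peaks only near its 3′ end. It lies on the plus strand of chromosome 17 at 34564268 to 34588503. Overlapping peaks of rank 19068 and 23651 lay at 34587424 to 34587783 and 34587645 to 34588004, over coding exons. Their nearest start site in the basic annotation was that of Gpsm3, 2202 and 1981 bp away. In the comprehensive annotation, which was not used for the classes, a protein-coding gene's start site lay 563 and 784 bp away. Both peaks also lay within 10 kb of Pbx2. The summits lay inside Notch4, and the lists do not assign them to a gene. The windows were 85.1% and 72.3% GC and had neither a GATA nor an ETS site. Both peaks were in replicate 2's list and neither in replicate 1's or the conservative list. In the relaxed lists, the stronger had no entry in replicate 1 and ranked 18074 in replicate 2. The weaker ranked 98805 in replicate 1 and 68892 in replicate 2, but the summit of that replicate 1 entry lay 289 bp away.

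Rbpj encodes the factor that carries the Notch signal on DNA. Its peaks of rank 10900 and 23004 lay at promoters, 789 and 185 bp upstream of a start site, at 53589245 to 53589604 and 53589849 to 53590208 on chromosome 5. That start site is an internal one, and the summits lay inside the gene, 123273 and 123877 bp from its 5′ end. The stronger ranked 8073 in replicate 2's relaxed list and the weaker 36226, and replicate 1's relaxed list had no entry at either. Neither window had a GATA or ETS site. They were 74.3% and 62.4% GC, against a median of 50.5% over all summits. Over the whole list, 25.7% of promoter summits had a GATA site.

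Among the target genes, Hes1 had the strongest peak. Hes1 encodes a basic helix-loop-helix repressor and lies on the plus strand of chromosome 16 at 30064384 to 30067796. The peak at 30065299 to 30065388 lay with its summit 5 bp upstream of a start site, and ranked 1922 with a signal score of 89.7. It ranked 8084 in replicate 1's relaxed list and 1515 in replicate 2's, and it was in the conservative list but not in replicate 1's thresholded list. Its window had a TGATAA 33.5 bp from the summit and no ETS site. A peak of rank 5906 lay 1055 bp upstream of that start site and 99 bp upstream of the gene's annotated 5′ end, and had neither site. It ranked 45361 in replicate 1's relaxed list and 4894 in that of replicate 2. A peak of rank 16675, downstream of the gene, is the Hes1 window printed above. It had a TGATAG on the minus strand 18.5 bp from the summit and a GTGGGAA 9 bp from it. Its relaxed rank was 134278 in replicate 1 and 18386 in replicate 2. Each Hes1 peak thus stood higher in replicate 2, as did every member peak with an entry in both relaxed lists.

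Hey1, another repressor gene of the family, had 1 peak, at 8664652 to 8665011 on chromosome 3, in a coding exon 2424 bp from the start site. It ranked 16692 in the optimal list, 140788 in replicate 1's relaxed list and 20614 in replicate 2's. It had neither a GATA nor an ETS site within 50 bp of the summit. Hey2 and Heyl, which encode the other HEY repressors, had no summit in the optimal, conservative or either replicate's thresholded list. The nearest summit of the optimal list lay 21911 bp from Hey2, at rank 21956, and 93581 bp from Heyl, at rank 13151. Their best entries in the relaxed lists ranked 60668 and 163654 in replicate 1 and 100252 and 46232 in replicate 2, for Hey2 and Heyl in that order.

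**Figure D2:**
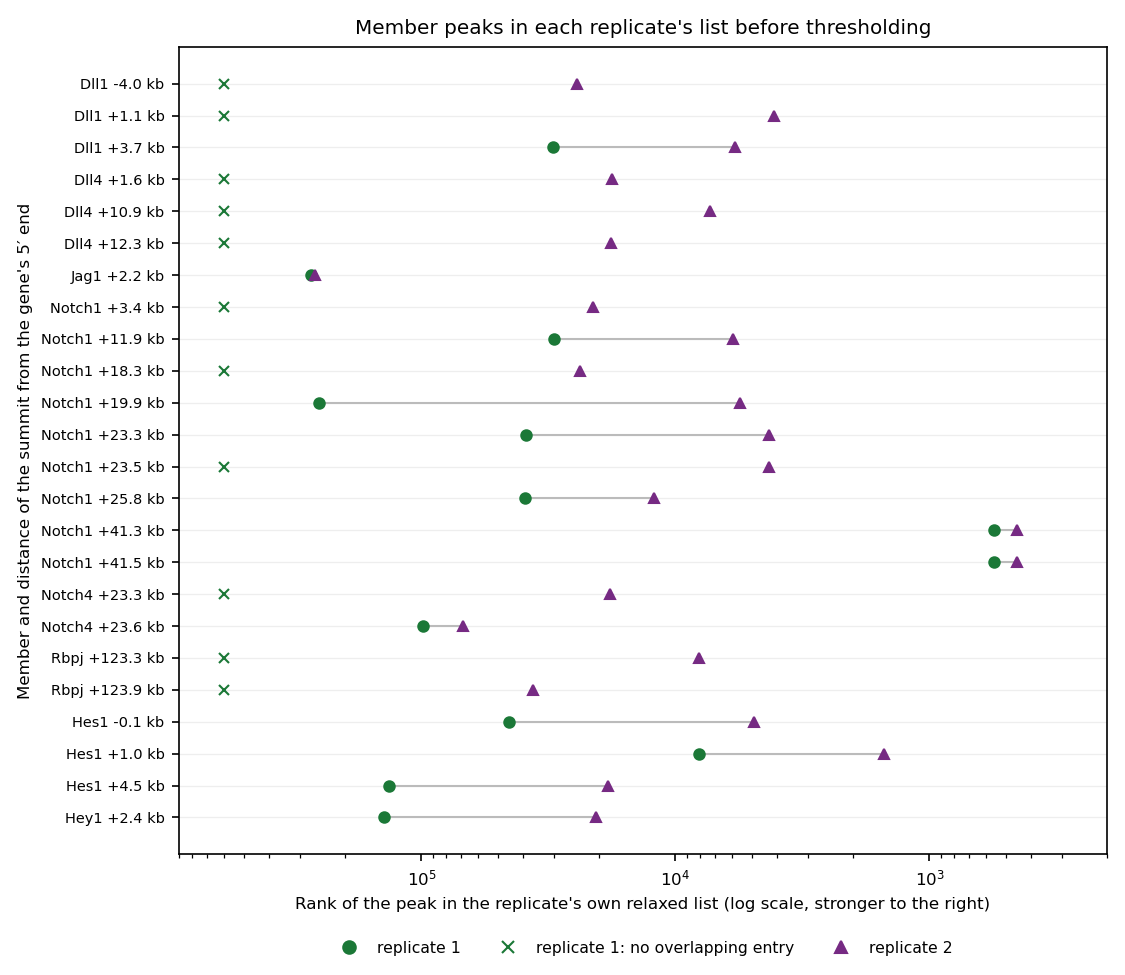
Rank of each of the 24 peaks, named by gene and distance from the gene's 5′ end, in the relaxed list of replicate 1 (circles; crosses where no entry overlaps) and of replicate 2 (triangles), on a log axis with stronger peaks to the right. Only the Notch1 position of rank 429, which has 2 lines, is stronger than rank 1000 in both. Each symbol is the overlapping entry with the nearest summit, so lines that overlap can share an entry.

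Replicate 2's thresholded list held 22 of the 24 peaks, where it held 82.5% of all peaks. Replicate 1's held 2 (8.33%), where it held 17.0% of all peaks. The whole list leaned on replicate 2. The 2 peaks in replicate 1's list are 1 position given in 2 lines, and whether the members differ from the whole list was not tested. The exceptions in replicate 2 were the Jag1 peak and the Notch1 line of rank 23661. In the relaxed lists, 13 of the 24 had an overlapping entry in replicate 1 and 24 in replicate 2, against 72.1% and 99.9% of all peaks. The median rank of those present was 38957 in replicate 1 and 10093.5 in replicate 2, against 15594 and 12188.5 over all peaks. The later run's pooled list held 22 of the 24 and its conservative list 6, where they held 83.2% and 40.8% of all peaks. The conservative list of the optimal list's own run held 7 of the 24, where it held 38.2% of all peaks: 5 at Notch1, the Dll1 intronic peak and the Hes1 promoter peak. With replicate 1's list alone, 1 of the 10 genes had a summit, where 11.4% of all genes did. With replicate 2's list alone 7 did, where 51.8% of all genes did.

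**Figure D3:**
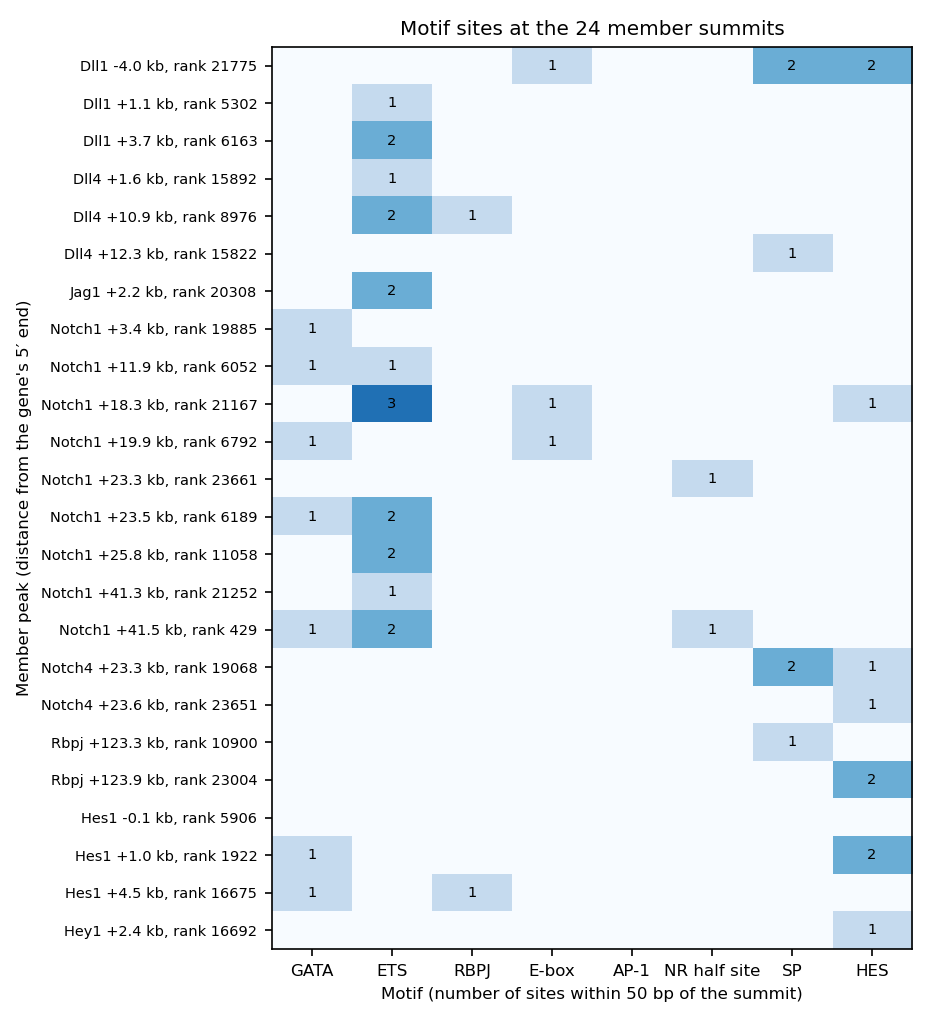
Number of sites of 8 motifs within 50 bp of each member summit, with one row per peak in gene order and darker cells for more sites. GATA sites stand in 7 rows, of Notch1 and Hes1, and ETS sites in 11 rows, of Dll1, Dll4, Jag1 and Notch1.

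By sequence, GATA sites within 50 bp of a member summit were found at Notch1 and Hes1 only. Of the 24 summits, 7 had a GATA site (29.2%), where 52.8% of all peaks had one, and 11 had an ETS site (45.8%), where 46.0% did. The form AGATAA alone lay at 4 summits, all at Notch1, where 27.2% of all peaks had it. The forms AGGAAG and CGGAAG lay at 10, where 30.9% of all peaks had either. Outside Notch1, 2 of 15 summits had a GATA site and 5 had an ETS site. Over whole peaks in place of windows, a GATA site lay in 9, where 70.0% of all peaks had one, and this added a Hey1 site and the further Notch1 line. The median GC content of the windows was 58.9%, against 50.5% over all peaks, and its part in the motif counts was not tested. Neither motif was found at 9 summits, where 24.5% of all peaks had neither. The SP letters GGGCGG lay at 4 summits, at Dll1, Dll4, Notch4 and Rbpj, where 9.33% of all peaks had them. GTGGGAA lay at 2, and CACGNG, the letters bound by HES-type repressors, at 7, where 9.09% of all peaks had it. TGANTCA, the AP-1 letters, lay at 0, where 3.54% of all peaks had them. AGGTCA, the hexamer of hormone receptors, lay at 2, both at Notch1, where 11.8% did.

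**Figure D4:**
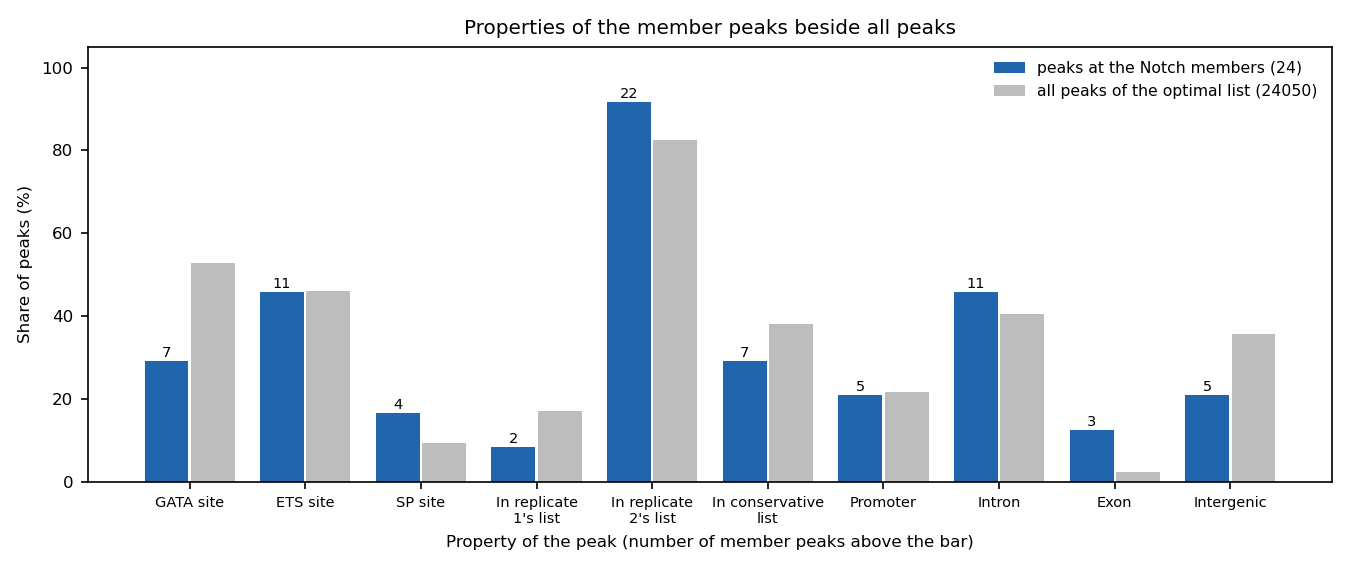
Share of the 24 member peaks (blue, number above the bar) and of all 24050 peaks (grey) with each motif, in each list and in each position class, in percent. The GATA share is 29.2% at the members and 52.8% over all peaks, and the ETS shares are 45.8% and 46.0%.

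By position, 11 of the 24 summits were intronic (45.8%, against 40.4% of all peaks), 5 lay within 1 kb of a start site (20.8%, against 21.6%), 5 were intergenic (20.8%, against 35.7%) and 3 were exonic (12.5%, against 2.33%). The exonic ones were the Hey1 peak and the overlapping Notch4 pair, which lay within 1 kb of a start site in the comprehensive annotation. The promoter peaks belonged to Dll1, Notch1, Hes1 and Rbpj. Of these 5, 2 had a GATA site and 2 an ETS site, where 25.7% and 42.3% of all promoter peaks did. None of the 5 was in replicate 1's list, which held 6.14% of all promoter peaks. Of the 19 others, 5 had a GATA site and 9 an ETS site, where 60.3% and 47.0% of all such peaks did. In replicate 1's list were 2 of the 19, and it held 20.1% of all such peaks.

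A wider list of 40 other pathway genes had a summit at 21, where 47.6% of all genes did. With replicate 1's list 4 of the 40 had one, where 11.4% of all genes did, and with that of replicate 2, 26 did, where 51.8% did. By role, 6 of the 7 protease genes had a summit, 3 of the 4 corepressor genes, 2 of the 4 coactivator genes and 3 of the 8 negative regulator genes. Of the other 4 ligand genes only Jag2 had one, and of the other receptor genes Notch2 had 5 and Notch3 had 0. Of the 5 glycosyltransferase genes, whose enzymes add sugars to the receptor, only Lfng had a summit. Of the 78 peaks, 33 had a GATA site, where 52.8% of all peaks did, and 37 had an ETS site, where 46.0% did.

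Strong peaks of the wider list lay at Psen2, Maml3, Lfng, Tle1 and Maml2. Psen2 encodes a catalytic subunit of the gamma-secretase that cuts the receptor. Its intronic peak of rank 566, at 180250593 to 180250805 on chromosome 1, was in both replicates' lists. Maml3, which encodes a coactivator of the Notch complex, had 16 summits over 419 kb, and its peak of rank 1487 was in both replicates' lists. Lfng had a promoter peak of rank 2140, 256 bp upstream of a start site. Tle1, a corepressor gene, had an intronic peak of rank 2583, in both replicates' lists. Maml2, another coactivator gene, had 9 summits over 411 kb, led by an intronic peak of rank 3214 whose nearest start site was that of Gm17571. Each of these 5 peaks, picked for their strength, had a GATA site, where 52.8% of all peaks did. Over the whole wider list, 33 of the 78 peaks had one. The share among peaks of like rank was not examined.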

How the data were processed

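GATA4 ChIP-seq peak lists of 2 samples in 1 group were used. Going by README tables that the authors deposited, the optimal, conservative and relaxed lists come from an earlier run of the authors' processing on mm10, and the replicates' thresholded lists and a pooled list from a later run. The names of the aligner and peak caller were not given in the sources used here. As deposited, the signal score has no stated unit, and it served only to rank peaks within a list. The deposited IDR score, which reaches 1000, rises as the IDR falls. The deposited summit offset was added to the peak start. No sample's depth is known.

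Coordinates were set against GRCm38.p6 sequence (RefSeq) and GENCODE mouse release 21 basic genes, and are printed from 1. No peak lay past a chromosome end. The 33 lines off chromosomes 1 to 19, X and Y, and genes of chromosome Y, were left out. A promoter summit lay within 1 kb of a protein-coding start site. Presence in a list meant at least 1 shared base. Motifs were searched within 50 bp of summits with Python 3.11.15 and pysam 0.24.0. The motif and linking code was tested on simulated data. Every member is named, and of the wider list the 6 with the strongest peak, of which 1 is not reported here. The members and lists were chosen with earlier results of these data known. No test was run: with 1 group, counts stand beside shares over all genes or peaks. The archived mm9 lists and the ranked lists were not used here.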

Additional observations from a re-analysis of the deposited data

How the results depend on the processing

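Counts were recomputed with other distances, lists, motifs and definitions of overlap. With the conservative list, 3 genes had a summit, with 8 peaks, of which 4 had a GATA site. With replicate 1 or 2 left out, the genes with a summit numbered 1 to 7, the peaks 1 to 26 and those with a GATA site 0 to 7, the low ends being replicate 1's list alone. AGATAA alone lay at 4 summits. Summits within 100 bp put 1 peak in both replicates' lists. Within 2.5 kb of a start site there were 11 summits. Among settings added after seeing the data, 9 lay within 1 kb of a start site of the comprehensive annotation, the Notch4 pair included. In another of these settings, 19 whole peaks held an ETS site. The cause of these changes was not tested. The other alternatives moved no count by over 1.5 times. Merging overlapping peaks left 21. No paired analysis was possible because there was 1 group. The unknown depth limits what an absent peak shows.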

Other observations

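The following peaks lay beyond 10 kb and were chosen after their values were seen. When each peak was linked only to the gene with the nearest start site, 33 peaks fell to 7 of the 10 genes. Hes1 then had 11 in place of 3. The strongest of these, of rank 12 in the optimal list with a signal score of 263, lay 119 kb upstream of the Hes1 start site, in intergenic sequence on chromosome 16 at 29945910 to 29946295. It ranked 1119 of 4287 in replicate 1's thresholded list and 3 of 26314 in replicate 2's, and it was in the conservative list. No GATA or ETS site lay within 50 bp of its summit, and 1 of each lay elsewhere in the peak. The window does hold GTGGGAA, the letters bound by RBPJ, which 2.20% of all summits had. Its window on the plus strand is shown because it is stronger than every peak within 10 kb of the 10 genes.
Hes1 upstream chr16:29946057-29946157, rank 12: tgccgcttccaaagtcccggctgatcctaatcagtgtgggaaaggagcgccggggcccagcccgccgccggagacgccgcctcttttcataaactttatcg
A peak nearest to Jag1, of rank 4226, lay 303 kb upstream of its start site and had a GATA site. A peak nearest to Rbpj, of rank 20464, lay 126 kb upstream and had a GATA site. Nearness along the chromosome does not assign these peaks to the genes.

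The lists of the later run held a Notch1 peak that the optimal list lacked. It lay 3685 bp downstream of the start site in replicate 2's thresholded list, at rank 15828, and 3698 bp downstream in the pooled list, at rank 20310. The pooled list in turn lacked the optimal list's Notch1 peaks of rank 19885 and 21167. It held 7 Notch1 summits, where the optimal list held 9.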
